A study of Mus musculus with 42 samples.

Results

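The genes described here encode the proteins of the cytosolic ribosome in mouse cells. They were taken by symbol from the RNA-seq gene list (Rpl or Rps with a number, the stalk genes Rplp0, Rplp1 and Rplp2, and Rpsa, without Rps27a), which gave 73 of 12347 symbols, 28 of the 40S and 45 of the 60S subunit. In the 3′READS data, which name no genes, reads at polyadenylation sites (PASs) were assigned to each gene span plus 4 kb downstream on its strand, and 71 of the 73 genes had reads, of 13737 protein-coding genes. Rpl41 had no coding gene of that symbol in the annotation used, and Rps29 had no listed site.

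The study examined how arsenic stress changes the 3′ ends of mRNAs. NIH3T3 cells, a mouse fibroblast line, were left non-treated (NT), given sodium arsenite at 250 µM for 1 h (AS), or given arsenite and then kept without it, for 4 h (RC4), 8 h (RC8), 12 h (RC12) or 24 h (RC24). C2C12 cells, a mouse muscle line, were used as proliferating myoblasts (MB) or as myotubes (MT) after differentiation in horse serum. The labels give strain C57BL/6 for both lines, and no library carries a genetic change.

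The 42 libraries fall into 6 sets. Total RNA of NIH3T3 cells was read by 3′READS in 3 NT, 3 AS and 1 library for each recovery time, and by RNA-seq in 2 NT, 1 AS and 1 RC4 libraries. Newly made RNA, tagged with 50 µM 4-thiouridine (4sU) for 1 h, and the flow-through (Ft) of older RNA were each read in 2 NT, 1 AS and 1 RC4 libraries. Cytoplasmic RNA bound to TIA1, an RNA-binding protein of stress granules recovered by immunoprecipitation (RIP), and its input were each read in 2 NT and 2 AS libraries. Cytoplasmic RNA of MB and of MT cells was read in 2 NT, 1 AS and 1 RC4 libraries each, and total RNA of untreated MB and MT cells in 2 libraries each. Where a set has 2 NT libraries with 0 and 4 h in their labels, these were used as replicates. Replicates of RIP, of total RNA and of the C2C12 sets are biological by the study's text, while no label says what separates them. For sets whose replicates are the 0 and 4 h NT libraries, the spread behind the p-values may be technical.

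Most ribosomal proteins are needed in equal numbers for each ribosome, and ribosomal protein mRNAs are short, abundant and long-lived. Many begin with a terminal oligopyrimidine (TOP) tract, a C followed by pyrimidines, through which translation is held back when growth signals fall. Several have numerous processed pseudogenes, copies of the mRNA inserted elsewhere in the genome, which makes short reads from the 3′ end hard to place.

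The 3′ ends that carried many reads are shown for Rpl8, Rps20 and Rps21, because these 3 genes weigh heavily in every 3′READS value summed over the family. Each line gives the last bases up to the leading site, 5′ to 3′ on the mRNA strand of NCBIM37 (mm9), in the annotated 3′UTR, with AATAAA or ATTAAA, the signals read by the cleavage machinery, in capitals.
Rpl8, chr15:76736715-76736744, plus strand: aggagctAATAAAgtacgtcctttggctaa
Rps20, chr4:3761617-3761646, minus strand: acaactgAATAAAtcgtcttaatggtcaaa
Rps21, chr2:179993120-179993149, plus strand: ataaaagttttaagtacctgtgacagttaa
Rpl22 proximal site, chr4:151706560-151706589, plus strand: ttaattcataAATAAAatttaggaacaaaa
Rpl22 distal site, chr4:151708147-151708176, plus strand: cactttttgtATTAAAgtggctgacacatg
Rpl22 is shown with both of its sites because their use differed between libraries, as described further on. AATAAA was found within 40 nt before the leading site of 47 of 71 ribosomal protein genes (66.2%), against 65.2% of all genes, so this signal is as common in the family as elsewhere.

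A C with 4 pyrimidines after it was found within 2 nt of the RefSeq start (GRCm38.p6) of 18 of the 54 ribosomal protein genes matched there (33.3%), against 11.9% of 9511 RNA-seq genes. Rps6, a 40S protein phosphorylated downstream of mTOR, and Rps21, also of the 40S subunit, show such a tract, here in capitals. Each line begins 5 nt before the RefSeq start, so both tracts begin just upstream of it.
Rps6, chr4:86857348-86857372, minus strand: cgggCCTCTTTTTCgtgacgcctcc
Rps21, chr2:180257374-180257398, plus strand: ccgCCCTCCTgcccaatagtgctgc
Letters in a window of RefSeq starts depend on how exactly the start is annotated, and a start without a match says nothing of the mRNA.

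These mRNAs were short. Their median 3′UTR was 68.5 nt, against 871.5 nt over all genes with reads, and their median coding sequence 465 nt against 1323 nt. Accordingly, 95.5% of their 3′READS reads lay in annotated 3′UTRs and 2.81% past the annotated gene end, where all genes had 80.1% and 17.5%.

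The 2 assays gave very different pictures of which ribosomal protein mRNAs are abundant. In RNA-seq the 73 genes took 7.94% and 7.65% of reads in the NT libraries, 7.52% in AS and 7.19% in RC4. Per kilobase of coding sequence, the highest level was that of Rpl26, a 60S protein, at 12519 RPKM (reads per kilobase and per 1e6 reads, mean of the 2 NT libraries), and Rps6 was at 6934 RPKM. Rpl5 and Rpl11, which together with 5S rRNA can bind Mdm2, were at 3583 and 791 RPKM. The stalk genes, whose products recruit translation factors, stood at 1732 (Rplp0), 4109 (Rplp1) and 2828 RPKM (Rplp2).

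In 3′READS, Rpl8 alone held 33.2% of the 4089188 reads of the family, Rps20 17.2% and Rps21 10.9%. These 3 genes together held 61.3% of the family's 3′READS reads but 1.78% of its RNA-seq reads. Rpl26, with 451019 RNA-seq reads, had 48413 reads in the 38 3′READS libraries, and Rps18, with 109932 RNA-seq reads, had 17.

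Copies of the 3′ end in the genome moved with this difference. The last 60 nt before the annotated end were found once in the genome (at least 54 nt at 95% identity) for 29 genes, which held 89.1% of the family's 3′READS reads and 41.6% of its RNA-seq reads. For the 25 genes found at over 5 places the shares were 2.51% and 37.3%, and 14 of these had under 1000 3′READS reads in all libraries together. Rpl29, for example, was found at 53 places and had 125 3′READS reads. Reads with a mapping quality under 10 had been removed by the authors. The part of multiple placement in any one gene's level was not tested, and 3′READS levels are therefore compared here between libraries of one gene and not between genes.

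**Figure D1:**
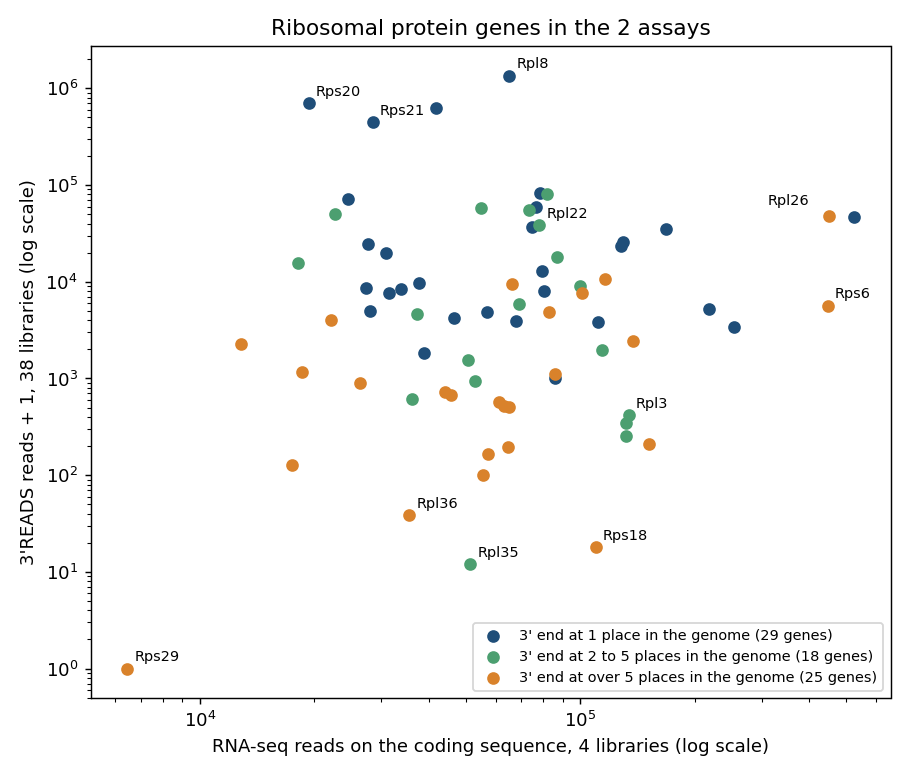
Reads of each ribosomal protein gene in RNA-seq (x axis, 4 libraries, log scale) and in 3′READS (y axis, 38 libraries, reads plus 1, log scale), with 1 point per gene coloured by the number of genomic places of its 3′ end. The 29 genes found once lie at or above 1003 reads on the y axis, while 14 of the 25 genes found at over 5 places lie under 1000.

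Depth ranged from 1048335 to 6974664 PAS reads in 3′READS and from 17137579 to 25194062 reads in RNA-seq, and the widest 95% Wilson interval of the family's share of a library was 0.0386 percentage points to either side, counting error only. Genes of the stress response summed to higher levels in AS and RC4 than in NT libraries, and all 5 fibroblast markers had reads in NIH3T3 cells. All 6 myotube markers had reads in MT cells, at a summed 20197 to 23760 RPM (reads per 1e6 gene reads) in untreated libraries against 84.2 to 237 in MB, where Myog, Myh3, Ckm and Tnnt3 were at 0 in untreated libraries. Of the 3 myoblast markers, Pax7 was at 0 in MB and MT, while Myf5 and Myod1 had reads in untreated libraries of both states. The list summed to 32.4 to 52.5 RPM in untreated MB and 51.6 to 59.6 RPM in untreated MT libraries, so it did not separate MB from MT. Epithelial markers were at 0 in untreated libraries of both lines. In bulk RNA, fewer cells of a type and less RNA per cell cannot be told apart.

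The libraries of total NIH3T3 RNA stood apart by replicate set more than by treatment. The family took 4.17%, 8.24% and 2.99% of gene reads in the NT libraries (replicates 1, 2 and 4) and 5.00%, 8.01% and 3.20% in the AS libraries with the same numbers. Rpl8 accounted for much of this, at 13682, 44280 and 6813 RPM in NT and 16958, 41903 and 6547 RPM in AS. Without Rpl8, Rps20 and Rps21, the share was 1.68%, 2.36% and 1.47% in NT and 2.21%, 2.25% and 1.64% in AS.

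**Figure D2:**
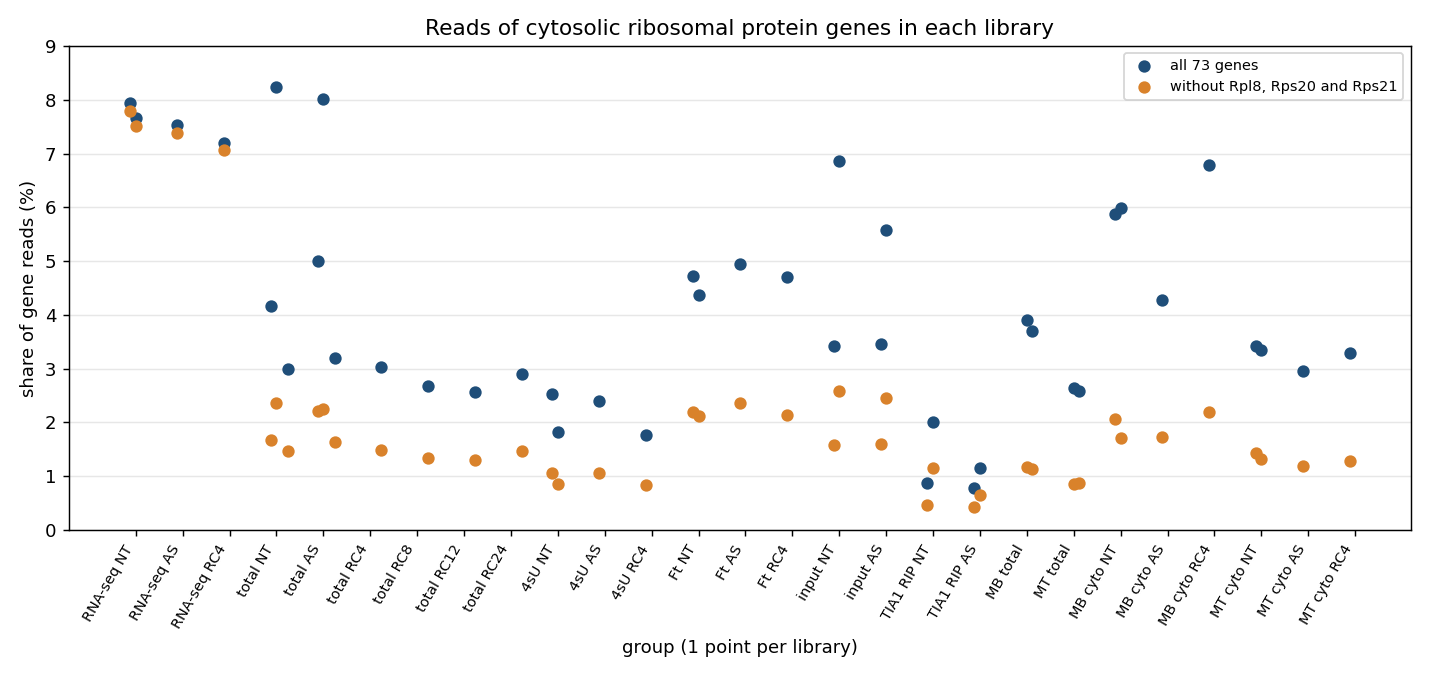
Share of gene reads taken by the 73 ribosomal protein genes (blue) and by the same genes without Rpl8, Rps20 and Rps21 (orange), in percent, with 1 point per library in each group. The total RNA libraries spread from 2.99% to 8.24% within NT, TIA1 RIP libraries lie at 0.786% to 2.01% and their inputs at 3.41% to 6.86%.

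The first question was whether ribosomal protein mRNAs change in abundance within 1 h of arsenite. They did not change detectably in total RNA. Of 62 genes tested in 3 AS against 3 NT libraries, 0 were called in either direction (edgeR quasi-likelihood test, adjusted p at most 0.05; 0% of 9248 genes called), and at an unadjusted p under 0.05 there were 0 of the 62 and 19 of all genes. DESeq2 also called 0 of them. The median log2 difference was 0.04, against −0.03 over all genes. Of 7 stress response genes tested in the same edgeR fit, 0 were called, although their median was 2.27. The 0 calls for the family thus do not show that its levels were unchanged. With the replicate numbers as a block, which pair these libraries, 0 of the 62 were called (0.314% of all genes, in either direction), and 6 of the 62 and 637 of all 9248 genes had an unadjusted p under 0.05. The family's share of reads differed by 0.269 percentage points (exact permutation test, two-sided, p = 0.9, n = 3 and 3, where the smallest possible p is 0.1).

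Individual genes varied widely among replicates. Rplp0 was at 232, 221 and 353 RPM in NT and 204, 230 and 451 RPM in AS, and Rpl11 at 73.7, 64.0 and 52.7 RPM in NT and 74.8, 60.1 and 68.8 RPM in AS. Both groups overlap for each of these genes. Rps16, a 40S protein, had one of the 3 highest log2 differences, 0.98 ± 1.12 (SE), at 209, 47.7 and 17.1 RPM in NT and 416, 77.3 and 37.3 RPM in AS. Each AS library was above the NT library of its number, but the sets differed far more than the treatments did. Over all 3′READS libraries, 5.74% of the reads of Rps16 and 25.9% of those of Rpl11 lay past the stop codon. The rest lay in introns or other exons, and the 3′ end of Rps16 occurs at 6 places in the genome. The same limit holds where either gene is named further on.

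RNA-seq gave the same gene list with 1 treated library and hence no test. In AS, 30 of the 73 genes were above and 43 below their mean in NT (58.9% below; 51.5% of all 10814 genes below), the median log2 ratio was −0.02, and the range was −0.15 (Rpl13) to 0.23. Of the 73, 0 passed 1.5-fold in either direction, where 8.54% of all genes were past it upward and 4.94% downward. Over the same genes, the NT library of 4 h lay −0.46 to 0.24 from that of 0 h, a wider range than AS showed. Mitochondrial ribosomal protein genes, which serve a separate ribosome, had a median of −0.13, with 52 of 77 below 0.

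In cytoplasmic RNA the medians lay below 0. In the NIH3T3 inputs, AS against NT gave 0 calls among 60 genes (edgeR without a block, adjusted p; 0% of 8663 genes called), with 1 of the 60 and 157 of all genes at an unadjusted p under 0.05 and a median of −0.14. This fit also called 0 of 7 stress response genes tested, whose median was 2.83. With the replicate number as a block, Rps16 was called higher in AS (0.716% of all genes called higher), at 121 and 392 RPM in NT and 305 and 936 RPM in AS (1.25 ± 0.24, adjusted p = 0.0209). Its groups overlap, these libraries share only a number, and few of its reads lie past the stop codon, as given above. With the cytoplasmic libraries of both C2C12 states in 1 fit, 0 of 62 were called (0.426% of 9628 genes called higher, 0.0312% lower), the median was −0.16, and 5 had an unadjusted p under 0.05, while DESeq2 called 1. Rpl3, which shapes the peptidyl transferase center, gave the highest value in that fit, from 0 reads in all 4 NT libraries, and is not read as a fold.

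The sets with 1 AS library were mixed in sign. In MB cytoplasm 43 of 56 genes lay below NT (52.1% of all genes did), with a median log2 ratio of −0.29, and in MT cytoplasm 35 of 54 (51.2% of all genes), with a median of −0.11. In the Ft fraction 15 of 58 genes lay below NT (50.9% of all genes), with a median of 0.14. In the 4sU fraction 9 of 52 lay below NT (51% of all genes), with a median of 0.30, which was 0.07 against the NT library of the same time alone.

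The second comparison followed recovery. Here the sign of the family's change depended on the scaling. In RNA-seq at RC4, all 73 genes were above NT by a median log2 ratio of 0.62 (range 0.20 for Rpl37a to 1.10 for Rps14) with median-ratio scaling, but the median was −0.19 when libraries were scaled by total reads, which placed the median of all genes at −0.82. Relative to the median gene the family was thus higher under either scaling, and relative to all RNA it was not. With median-ratio scaling 44 of the 73 genes passed 1.5-fold upward, against 25.6% of all genes, and 0 downward, against 26% of all genes. None of the 73 was below NT, against 50.6% of all genes.

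A pair of measurements moved with this scaling dependence. The 8 genes of the stress response list took 0.0369% and 0.0294% of RNA-seq reads in NT, 0.946% in AS and 6.96% in RC4, and the 10 most abundant genes took 6.61% and 6.62% in NT and 20.9% in RC4. Without the stress list, the family's share in RC4 was 7.73% in place of 7.19%, against 7.94% and 7.65% in NT.

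Values by role follow, all on the log2 scale with median-ratio scaling. Rps6 was at 0.92 and Rps3, a 40S protein at the mRNA entry, at 0.94, and the stalk genes were at 0.57 (Rplp0), 0.67 (Rplp1) and 0.72 (Rplp2). Rpl5 and Rpl11 were at 0.64 and 0.62. Other TOP mRNAs, a list of translation factors and related genes, had a median of 0.56 with 1 of 16 below 0, and ribosome biogenesis genes 0.62 with 7 of 34 below 0. Mitochondrial ribosomal protein genes had a median of −0.16 with 51 of 77 below 0.

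In 3′READS the recovery values were smaller and were mixed in sign. At RC4 the median was 0.18 in total RNA, with 16 of 54 genes below NT (50.7% of all genes were), and 0.38 in the Ft fraction, with 6 of 58 below (50.7%). In the 4sU fraction it was 0.03, with 23 of 52 below (50.7%). The family's median in the 4sU NT library of 4 h lay −0.52 from that of 0 h, so the RC4 value depends on which NT library is the control. The RC4 median was 0.40 in MB cytoplasm, with 14 of 56 below (51.5%), and 0.15 in MT cytoplasm, with 12 of 54 below (51.3%). With scaling by total gene reads the values were −0.041 in Ft, 0.060 in MB and −0.059 in MT, where the median of all genes moved to −0.43, −0.37 and −0.23. Within the time course of total RNA, each library set against the single NT library of that set, the median was −0.23 at RC8 and −0.24 at RC12, with 47 of 54 genes below 0 at each time, against 49.9% and 49.5% of all genes, and was −0.066 at RC24, with 31 of 54 below 0 (50.2% of all genes). Past 1.5-fold, 10 genes were lower at RC8 (13.1% of all genes) and 12 at RC12 (9.66%), and 0 were higher at either time (14.2% and 9.54%). These times share 1 control library, and there is no replicate to test them. Rpl5 was at −0.59 at RC4, −1.27 at RC8 and −1.11 at RC12, and Rpl11 at −0.34, −1.03 and −0.91.

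**Figure D3:**
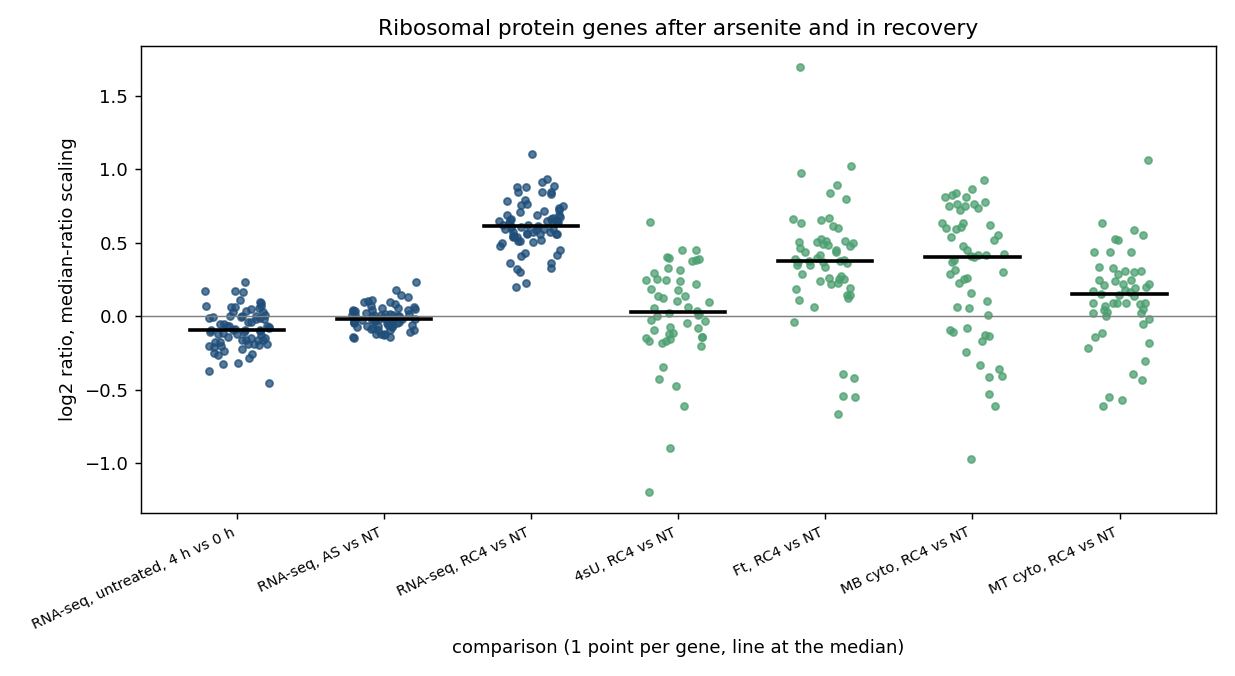
Log2 ratio of each ribosomal protein gene (1 point per gene, line at the median, median-ratio scaling) between the 2 NT RNA-seq libraries, in AS and RC4 RNA-seq libraries (blue), and in 4 3′READS sets at RC4 (green), each relative to NT. The RC4 RNA-seq points all lie above 0, a direction that turns to a median of −0.19 with scaling by total reads.

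In C2C12 cytoplasm, the fit over both cell states called 0 of 62 genes at RC4 (edgeR, adjusted p; 4.86% of 9628 genes called higher and 3.98% lower), with 6 at an unadjusted p under 0.05 and a median of 0.27, and DESeq2 called 1. The median was −0.015 with scaling by total reads, and 0.11 without the MB RC4 library. The response of MT minus that of MB had a median log2 difference of 0.17 for AS and −0.38 for RC4 over 63 genes. The medians of all 10143 genes were −0.03 and 0.02. Each state had 1 AS and 1 RC4 library, so the spread would come from untreated libraries alone, and no test of this difference is given.

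The third comparison asked which mRNAs TIA1 holds in the cytoplasm. Ribosomal protein mRNAs took a smaller share of reads in TIA1 RIP than in input, in NT and AS cells. The share was 3.41% and 6.86% of gene reads in NT inputs and 0.879% and 2.01% in NT RIP libraries, and 3.46% and 5.59% in AS inputs and 0.786% and 1.15% in AS RIP libraries. The RIP and input libraries do not overlap in either condition, though with 2 libraries each an exact permutation test cannot go below p = 0.333.

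In NT cells 7 of 63 genes were lower in RIP (edgeR, adjusted p; 1.37% of all 9740 genes called lower) and 0 were higher (2.06% of all genes). The median log2 RIP-to-input difference was −1.45, against 0.20 over all genes. In AS cells 5 of 63 were lower (0.647% of all genes) and 0 higher (0.462% of all genes), with a median of −1.91 against 0.22. RIP and input of one number are parts of the same lysate, and a fit with each lysate as a block, added after seeing the data, called 30 of 63 genes lower in NT (8.62% of all genes) and 34 in AS (7.43% of all genes), with 0 higher in either and medians of −1.79 and −2.04. Without the block, 27 of the 29 genes whose 3′ end occurs once in the genome were below 0 in NT and 29 in AS. Of the 34 other genes tested, 29 were below 0 in NT and 30 in AS. The medians of all genes in these fits, 0.20 and 0.22, were above 0.

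Rpl18, Rpl23, Rpl32 and Rpl35a, all of the 60S subunit, were called in both conditions without the block. Rpl35a was at 7.04 and 5.93 RPM in NT RIP and 51.6 and 72.8 RPM in NT input, a log2 difference of −3.26 ± 0.62 (SE, adjusted p = 0.0321). In AS cells it was at 2.35 and 6.88 against 53.1 and 77.1 RPM, a difference of −3.79 ± 0.64 (adjusted p = 0.0404). Its RIP values lie far under its input values in both conditions.

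Rpl32 was at 35.2 and 48.4 RPM in NT RIP and 202 and 276 RPM in NT input (−2.51 ± 0.48, adjusted p = 0.0327). Rpl18 was at 82.1 and 55.6 against 297 and 272 RPM (−2.04 ± 0.38, adjusted p = 0.0306). Rpl23 was at 224 and 219 against 782 and 820 RPM (−1.85 ± 0.33, adjusted p = 0.0284). The spread between replicates is narrow beside these differences.

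Rps20 and Rps21, of the 40S subunit, were called with the lysate block and not without it. Rps21 was at 544 and 2579 RPM in NT RIP and 6422 and 17094 RPM in NT input (−3.14 ± 0.27 with the block, adjusted p = 5.77e-05), and Rps20 at 380 and 953 against 2053 and 4760 RPM (−2.37 ± 0.26, adjusted p = 0.00016). Both genes differ more between the 2 lysates than those above, and each RIP library lies under its own input.

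Rpl8, Rps15a and Rpl37 were the other genes called in NT without the block. Rpl8, the gene with most 3′READS reads, was at 3227 and 5167 RPM in RIP and 9947 and 20839 RPM in input (−1.87 ± 0.42, adjusted p = 0.0479). Rpl37 had 0 listed reads in both NT RIP libraries and 57 and 53 in the inputs, which is given without a fold since sites under 5 reads are not listed. In AS cells the fifth gene was Rps24, at 57.6 and 44.4 RPM in RIP and 276 and 183 RPM in input (−2.17 ± 0.39, adjusted p = 0.0486).

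Not every member followed. Rplp0 was at 187 and 472 RPM in NT RIP and 212 and 395 RPM in NT input (0.12 ± 0.61, adjusted p = 0.935), so its groups overlap, and Rpl11 at 40.5 and 49.1 against 59.0 and 97.5 RPM (−0.80 ± 0.43, adjusted p = 0.306). The highest differences, those of Rpl24, Rpl7 and Rps2, and the low ones of Rpl7a and Rps15 rest on few reads. Rpl24 had 5 and 23 reads in NT RIP and 0 and 0 in input, and Rpl7 had 43 and 39 against 0 and 8.

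Other lists were also below input. Of 17 other TOP mRNAs 2 were lower in NT, with a median of −0.96, and of 71 mitochondrial ribosomal protein genes 7 were lower, with a median of −1.13. The change of RIP enrichment from NT to AS was not called for any of 63 genes (edgeR, adjusted p; 0 of all 9740 genes called, with 2 and 210 at an unadjusted p under 0.05), with a median of −0.54, and this median was 0.37 without TIA1 RIP NT replicate 2. The NT calls fell to 0 without TIA1 RIP NT replicate 1 or without either NT input, and the AS calls fell to 0 without any 1 of the AS RIP, AS input or NT input libraries. The AS calls numbered 15 without either of the NT RIP libraries. DESeq2 called 22 genes lower in NT (6.84% of all genes) and 26 in AS (6.25%). The change from NT to AS had 0 of 63 calls with the lysate block too, with a median of −0.41.

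**Figure D4:**
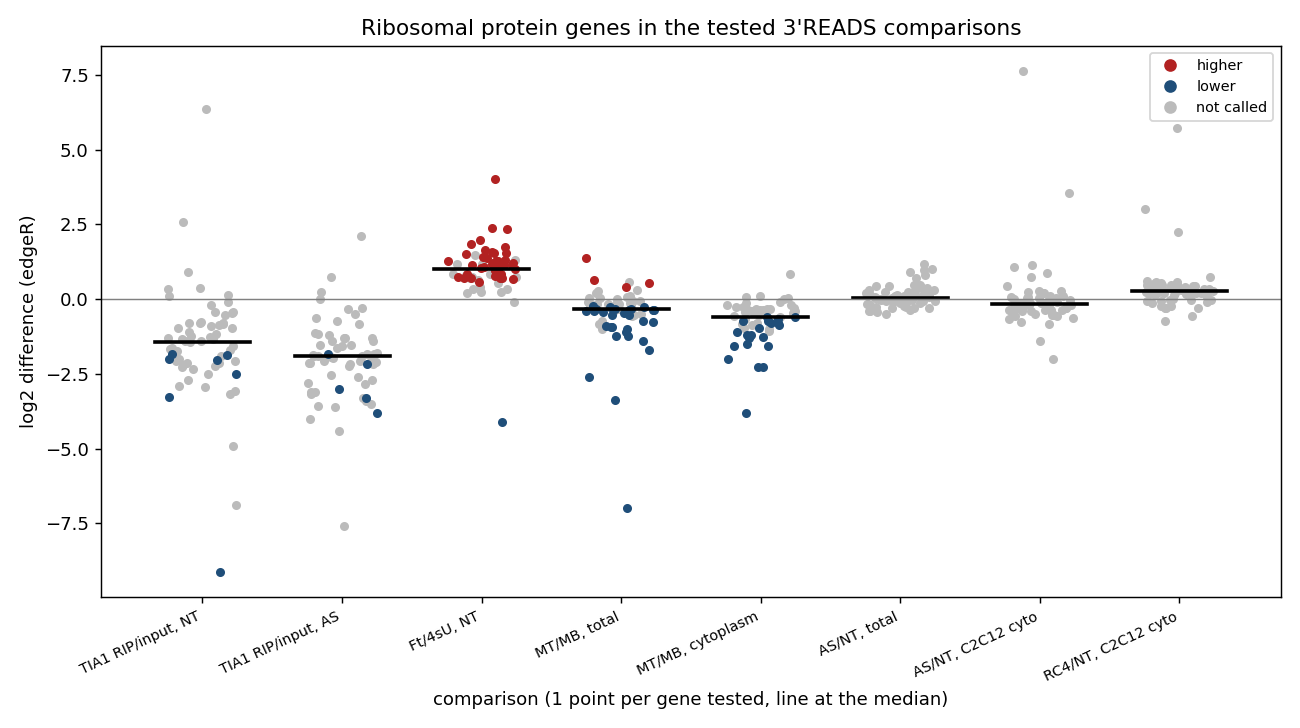
Log2 difference of each ribosomal protein gene tested (edgeR, y axis; 1 point per gene, line at the median) in 8 comparisons, coloured by call at an adjusted p of at most 0.05. Medians lie at −1.45 and −1.91 for TIA1 RIP, 1.03 for Ft against 4sU and −0.34 and −0.59 for MT against MB, and the points beyond 4 on either side are genes with 0 reads in at least 1 library.

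The fourth comparison set older against newly made RNA in NT cells, a ratio the study reads as stability. Ribosomal protein mRNAs were richer in the Ft fraction. They took 2.53% and 1.82% of gene reads in the 4sU fraction and 4.73% and 4.38% in Ft. Of 61 genes, 41 were higher in Ft (edgeR without a block, adjusted p; 17% of 9890 genes called higher) and 1 was lower (32% of all genes), with a median log2 difference of 1.03 against −0.26 over all genes. With the replicate number as a block, 47 were higher (2120 of all genes) and 1 was lower (3617 of all genes), with a median of 1.00. Values of single genes below are from the fit without the block.

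4sU enters RNA in place of uridine, so mRNAs with more uridines are captured more readily, and the ribosomal protein mRNAs had a median of 164 uridines against 665. After a linear adjustment for the log2 number of uridines (slope −0.53), the median of the family was 0.086 and 34 of 61 genes were above 0, against a median of −0.26 over all genes with 38.2% above 0. After it, 45 of the 61 lay above the median of all genes. The median of the family thus came closer to 0 and to that of all genes.

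Rplp0, which anchors the stalk, was at 95.6 and 85.8 RPM in 4sU and 308 and 343 RPM in Ft (1.84 ± 0.17, adjusted p = 3.17e-06). Rpsa, a 40S protein also known as the laminin receptor, was at 67.5 and 69.4 against 163 and 169 RPM (1.28 ± 0.18, adjusted p = 7.03e-05). The fractions do not overlap for either gene.

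Rpl5 stood apart at 42.0 and 20.7 RPM in 4sU and 30.1 and 27.2 RPM in Ft (−0.10 ± 0.33, adjusted p = 0.822), where the groups overlap. Rpl24, the gene called lower, had 50 and 117 reads in 4sU and 9 and 0 in Ft. Its 3′ end occurs at more than 1 place in the genome. The highest values rest on few reads too, with Rps2 at 0 and 5 reads in 4sU and 37 and 45 in Ft, Rpl7a at 5 and 5 against 34 and 20, and Rps16 at 7 and 8 against 42 and 36. Among other TOP mRNAs 14 of 17 were higher in Ft (median 1.05), and among mitochondrial ribosomal protein genes 35 of 71 (median 0.62).

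The fifth comparison, of myotubes with myoblasts, gave mostly lower levels in MT. Of 61 genes in total RNA, 29 were lower in MT (edgeR, adjusted p; 29.4% of 10252 genes called lower) and 4 were higher (32.5% of all genes), with a median of −0.34 against 0.04. In the separate cytoplasmic libraries of untreated cells, 21 of 56 were lower (11.2% of 8787 genes) and 0 higher (15.2% of all genes), with a median of −0.59 against 0.07. With 18 genes lower in both, 62.1% of the total RNA list and 85.7% of the cytoplasmic list were shared. Markers of cycling cells summed to 1021 to 1487 RPM in untreated MB libraries and 177 to 291 RPM in MT. The collagens and other fibroblast markers, 4 of 5 with reads and Pdgfra at 0, summed to 464 to 2196 RPM in these MB libraries and 3688 to 15158 RPM in MT. The part of either list in the family's values was not tested.

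Rpl8, Rps20 and Rps21, which carried many of the reads, were all lower in total RNA. Rps20 was at 9076 and 7967 RPM in MB and 6336 and 6134 RPM in MT (−0.32 ± 0.09, adjusted p = 0.00483), and in cytoplasm at 21655 and 24338 against 9849 and 10416 RPM (−1.22 ± 0.18, adjusted p = 0.00408). Rpl8 was at 16134 and 15717 against 10202 and 9715 RPM in total RNA (−0.55 ± 0.08, adjusted p = 2e-05). These groups do not overlap.

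Rpl6, of the 60S subunit, was one of the 3 lowest in total RNA, at 53.6 and 69.6 RPM in MB and 6.39 and 11.7 RPM in MT (−2.62 ± 0.23, adjusted p = 6.85e-08). In cytoplasm it was at 78.3 and 65.1 against 26.1 and 23.3 RPM (−1.57 ± 0.24, adjusted p = 0.00505). Rpl6 has a proximal site in an intron and a distal site in its 3′UTR. The distal site held 26.4% and 21.0% of the reads of both in MB total RNA and 56.25% and 70.4% in untreated MB cytoplasm. In the untreated MT libraries it held 100%, so part of both differences lies in intronic reads. Rps25, a 40S protein used by some viral internal ribosome entry sites, was at 147 and 128 against 54.9 and 50.8 RPM in total RNA (−1.25 ± 0.13, adjusted p = 5.22e-07) and at 90.2 and 128 against 23.6 and 32.1 RPM in cytoplasm. Rpl10, among the last proteins to join the 60S subunit, had 13 and 18 reads in MB and 0 and 0 in MT.

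Among the stalk genes, Rplp0 was at 221 and 233 RPM in MB and 175 and 175 RPM in MT in total RNA (−0.25 ± 0.10, adjusted p = 0.0449) and at 459 and 474 against 223 and 195 RPM in cytoplasm (−1.19 ± 0.18, adjusted p = 0.00456). Rplp1 was called lower in both sets. Rplp2 was not called in either, at 32.4 and 36.3 against 26.4 and 26.7 RPM in total RNA.

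The 4 genes higher in MT total RNA were Rpl27, Rpl5, Rpl22 and Rps23, and 0 of them were called in cytoplasm. Rpl5 was at 46.2 and 33.0 RPM in MB and 59.0 and 52.3 RPM in MT (0.63 ± 0.17, adjusted p = 0.00484). Rpl22, an RNA-binding protein of the 60S subunit that ribosomes can do without, was at 411 and 371 against 558 and 483 RPM (0.54 ± 0.10, adjusted p = 0.000265). Rpl27 had 7 and 7 reads in MB and 19 and 18 in MT.

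Other lists moved alongside. Of 34 ribosome biogenesis genes 18 were lower and 4 higher in MT total RNA (median −0.40), and 13 of 32 were lower in cytoplasm (median −0.99). Of the other TOP mRNAs, 8 of 16 were lower and 4 higher in total RNA (median −0.13). The total RNA calls numbered 21 without MT total replicate 2, and the cytoplasmic calls 8 and 5 without the first or the second untreated MT library. With scaling by total gene reads the median in total RNA was −0.47, and that of all genes −0.10.

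Finally, use of alternative PASs was examined. A second site with at least 5% of the gene's reads was found in 41 genes, and in 25 of these both sites lay past a stop codon. Of the 41, 25 had at least 10 reads in all 6 total RNA libraries of NT and AS cells, and the distal share reached the smallest p the design allows (0.1, exact permutation test, two-sided) in 0 of them. This test takes no account of the pairing by replicate number. Within the 3 pairs, the distal share was higher in AS in all 3 for 3 of the 25 genes and lower in all 3 for 2, and an exact paired test of 3 pairs cannot go below p = 0.25. Rpl14, named with Rpl4 after their values were seen, was lower in AS in each pair, at 8.86%, 15.96% and 13.2% in NT and 4.10%, 11.2% and 9.94% in AS. Rpl4 was higher in AS in each pair, with 71.1% in NT against 78.7% in AS for replicate 1 and 43.1% against 49.3% for replicate 4. The distal site of both lies past the annotated gene end.

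Rpl22 (chr4:151699851-151708180, plus strand, NCBIM37) had a pair of sites 1587 nt apart in its 3′UTR, the proximal and distal sites printed above, and its 3′ end occurs at 5 places in the genome. The distal site took 20.6% and 23.5% of the reads of both sites in MB total RNA, and 59.8% and 63.8% in MT total RNA. In untreated cytoplasm the values were 36.03% and 32.15% in MB against 64.6% and 55.4% in MT. In AS and RC4 cytoplasm they were 27.6% (95% Wilson interval 24.0% to 31.4%) and 20.5% (16.96% to 24.44%) in MB, against 64.3% (60.7% to 67.7%) and 60.1% (56.4% to 63.6%) in MT. Every MT library thus lay above every MB library, though 2 against 2 libraries cannot give an exact p below 0.333.

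TIA1 RIP also held more of the distal isoform of Rpl22. The distal share was 31.9% and 35.5% in NT inputs and 70.6% and 55.5% in NT RIP libraries. In AS cells it was 27.5% and 33.4% in inputs and 59.1% and 61.4% in RIP libraries. The RIP and input libraries do not overlap in either condition.

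In total NIH3T3 RNA the distal share of Rpl22 differed by replicate number far more than by treatment. It was 96.8%, 24.9% and 64.0% in NT (replicates 1, 2 and 4) and 96.9%, 26.7% and 64.7% in AS (exact permutation test, p = 0.7, n = 3 and 3). The level of the gene differed as well, at 194, 966 and 77.5 RPM in NT and 142, 817 and 83.5 RPM in AS. Rpl27a, of the 60S subunit and named here after its values were seen, showed the same order, at 87.2%, 11.4% and 59.6% in NT and 86.4%, 10.4% and 59.7% in AS. In recovery, Rpl22 was at 43.6% (33.1% to 54.6%) at RC4, 54.1% at RC8, 60.0% at RC12 and 55.7% at RC24, with 61 to 105 reads at both sites together.

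**Figure D5:**
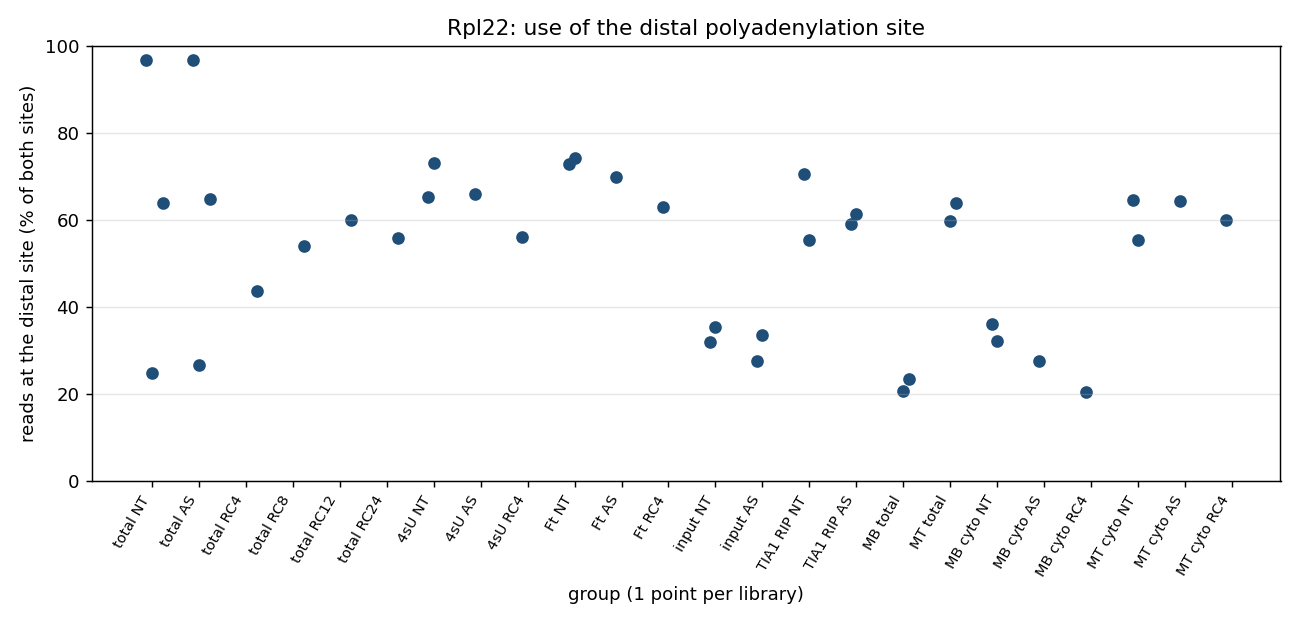
Share of Rpl22 reads at the distal of its 2 polyadenylation sites, in percent of the reads at both, with 1 point per 3′READS library in each group. MT libraries lie at 55.4% to 64.6% and MB libraries at 20.5% to 36.03%, while total RNA of NT cells spreads from 24.9% to 96.8%.

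Rps24, a 40S protein with known alternative 3′ exons, was named after its values were seen. Its distal site, in the annotated 3′UTR, lies 2364 nt past a site in another exon, and took 89.6% and 89.4% of reads in MB total RNA and 57.2% and 58.2% in MT total RNA. In untreated cytoplasm the values were 88.2% and 95.8% in MB and 68.9% and 72.9% in MT. In AS and RC4 cytoplasm they were 90.97% and 91.7% in MB and 83.7% and 79.7% in MT.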

How the data were processed

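Gene expression was analysed in 42 libraries, 38 of 3′READS and 4 of RNA-seq. The deposited 3′READS files hold raw read counts per polyadenylation cluster, without normalization. Per the labels and methods, the authors cut adapters (Cutadapt), aligned to mm9 (bowtie2), required mapping quality 10 or more and 2 or more Ts not encoded in the genome, and merged sites closer than 24 nt. No cluster of fewer than 5 reads appears. The deposited RNA-seq counts, from STAR alignments, are raw reads on the coding sequence of each gene.

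PAS reads were summed per protein-coding gene (GENCODE annotation of NCBIM37). Groups came from the labels. Genes were tested with edgeR 4.0.16 (R 4.3.3), quasi-likelihood test, Benjamini-Hochberg adjusted over all genes tested, threshold 0.05. Libraries were scaled by median ratio, or by total gene reads for RIP and for Ft against 4sU. DESeq2 1.42.0 was an alternative, as were other scalings, filters, the extension past the gene end, the replicate block and each library left out. Comparisons with 1 treated library have no test. Copies of 3′ ends were found with BLAST+ 2.17.0. Some of the fits were also run on simulated counts with known changes. These had the same spread for every gene and no differences between replicate sets. They therefore do not show what could be detected in the real libraries.

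In total RNA the deviations of same-numbered NT and AS libraries correlated at 0.851, 0.850 and 0.778, so these numbers pair the libraries. By the study's methods, RIP and input are parts of one lysate, and Ft is what 4sU capture left of one RNA sample. Equal numbers were taken to pair these too. Correlations were 0.307 in NT and 0.332 in AS for RIP and input, and 0.181 for Ft and 4sU. Among RIP and input libraries, those of equal number from different lysates correlated at 0.228 to 0.472. Pairing by lysate thus rests on the methods and not on these values. A block for each lysate was added after seeing the data.

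The genes and comparison lists were chosen with earlier results of these data known. Named genes were, in each comparison, the 3 highest and 3 lowest, up to 3 called against the majority, and a list of stalk and other members named where a value was needed. Other genes, named for their reads, their calls or their sites, lie outside this rule and were chosen after their values were seen. Values of some genes are not reported here.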

Additional observations from a re-analysis of the deposited data

How the results depend on the processing

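Of 330 alternatives over 35 results, 162 medians stayed within the replicate spread and 114 counts within 1.5 times. TIA1 RIP moved most. The NT calls were 23 with no filter on low counts, 22 with DESeq2, 27 with the replicate block and 30 with each lysate as a block. The AS calls were 3 with TMM, 32 with no filter, 13 with more than 5 reads in every library, 26 with DESeq2, and 30 and 34 with these blocks. All-gene calls rose with these settings too, in NT from 1.37% lower to 8.62% with the lysate block and 6.84% with DESeq2. Outside TIA1 RIP, the replicate block called Rps16 higher in AS in the NIH3T3 inputs (1 gene, with 62 of all genes higher and 9 lower), and moved no other count by over 1.5 times. AS and NT inputs and MT and MB share only a number, with 2 pairs and correlations of 0.573 and 0.054. DESeq2 called 1 gene for AS and 1 for RC4 in C2C12 cytoplasm. Scaling by total gene reads reversed the RC4 medians of RNA-seq (−0.19), Ft (−0.041), MT cytoplasm (−0.059) and C2C12 cytoplasm (−0.015), and moved those of MB cytoplasm in RC4 (0.060) and AS (−0.27), MT cytoplasm in AS (−0.16) and MT against MB total RNA (−0.47). The MT against MB total RNA median was −0.33 with 1 kb past the gene end. Chosen after seeing the data, sites past the stop codon only gave −0.28, and −0.53 in cytoplasm. In MB cytoplasm the untreated library of the same time gave −0.30 for AS and 0.46 for RC4, and TMM gave −0.28 for AS. Adjustment for uridines moved the Ft to 4sU median to 0.086. Where no value is given for it, the cause was not tested.

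Leaving out 1 library at a time gave 0 to 6 calls (median −2.65 to −0.94) for RIP in NT, 0 to 15 (−2.25 to −1.60) for RIP in AS, and medians of −0.95 to 0.37 for the change of enrichment, where 0.37 was without TIA1 RIP NT replicate 2. It gave 21 to 31 calls (−0.37 to −0.30) for MT against MB in total RNA, 5 to 29 (−0.64 to −0.59) in cytoplasm, 33 to 49 (0.78 to 1.26) for Ft against 4sU, and 0 to 1 call in C2C12 cytoplasm at RC4 (0.11 to 0.42) and 0 in AS (−0.29 to −0.037). In total RNA and inputs, AS against NT, it gave 0 calls, with medians of −0.20 to 0.36 and −0.51 to 0.36. Genes with few 3′READS reads, many of them with copied 3′ ends, limit what could be called.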
